A study of Mus musculus with 4 samples.

Results

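The binding sites of FLAG-tagged Etv6 were set against the regions marked by dimethylation of histone H3 at lysine 4 (H3K4me2) in mouse neural progenitor-like cells, by chromatin immunoprecipitation followed by sequencing (ChIP-seq). The members were taken by a fixed rule from the deposited peak lists, on chromosomes 1 to 19 of the mm9 genome build. They comprised 30368 Etv6 peaks and 48520 H3K4me2 peaks, out of 125574 peaks in the 4 lists of the series. Each Etv6 peak was represented by its summit, the base with the highest pile-up of tags (sequenced fragment ends), and was called marked when that summit lay inside an H3K4me2 peak. An H3K4me2 peak that held at least 1 Etv6 summit was called occupied.

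The cells were grown from embryonic stem cells of strain 129/SvJ in the presence of EGF and FGF-2 and were used at passages 15 to 18, per the labels. Etv6 was pulled down through its FLAG tag (antibody M2), from cells whose library title names NS and F-Etv6. H3K4me2 was precipitated with an antibody against the modified histone, from cells whose title names N31, Oct4, EGFP and 0hr. The titles therefore name NS cells for the one library and N31 cells for the other, and the sources used here do not say whether these are the same line or how the tagged Etv6 was expressed. A difference between the cells cannot be told apart from one between factor and mark. Each list came from 1 library without a control library, so intervals below (exact, 95%) cover counting error only, neighbouring peaks are not independent, and no test between conditions was possible. The Etv6 library kept 24071748 tags after removal of duplicates and the H3K4me2 library 24550365, so the pair was of nearly equal depth. The other FLAG libraries, used for comparison, were one whose title names NS and F-Pax6 (Pax6) and one whose title names N31, EGFP and OK (called EGFP_OK, whose tagged protein the sources used here do not name). They kept 5288154 and 21498324 tags.

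Etv6, also known as TEL, is a transcription factor of the ETS family, whose members bind DNA through a conserved ETS domain that recognises short purine-rich sites. It is best known as a repressor and for its part in blood cell development and leukaemia fusions. H3K4me2 is laid down on nucleosomes by SET1 and MLL family methyltransferases. It is found at active and poised promoters and enhancers, where the marked nucleosomes flank a stretch of open DNA to which factors bind. Broad domains of the mark are commonly seen at promoters and at clustered regulatory elements.

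Of the 30368 Etv6 summits, 15921 were marked and 14447 were not. This put 52.4% (51.9 to 53.0) of the summits into 93.7 Mb of marked DNA, at a rate of 0.170 summits per kb (0.167 to 0.173). From the other side, 15664 of the 48520 H3K4me2 peaks were occupied, or 32.3% (31.9 to 32.7). Most marked Etv6 peaks did not reach past the mark. The whole Etv6 peak lay within its H3K4me2 peak in 70.7% of cases, crossed 1 edge in 24.9% and covered both edges in 4.42%. Of the 14447 peaks with an unmarked summit, 927 still touched an H3K4me2 peak.

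The share of H3K4me2 peaks that were occupied was higher in wider classes, but the rate of Etv6 summits per kb of marked DNA stayed within a narrow range. H3K4me2 peaks under 1 kb numbered 9425, and 12.5% of them (11.8 to 13.2) were occupied. Among the 21396 peaks of 1 to 2 kb, 25.1% (24.5 to 25.7) were occupied. Occupied peaks made up 44.4% (43.4 to 45.3) of the 10602 peaks of 2 to 3 kb and 62.1% (60.98 to 63.3) of the 7097 peaks over 3 kb. Intervals of neighbouring width classes did not overlap. The widest class thus held the mark's most frequently occupied peaks, and the narrowest class its least.

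Per kb of marked DNA the order was different. The rate was 0.162 summits per kb (0.153 to 0.171) in peaks under 1 kb, 0.171 (0.167 to 0.176) at 1 to 2 kb, 0.184 (0.179 to 0.189) at 2 to 3 kb and 0.159 (0.154 to 0.163) over 3 kb. Peaks over 3 kb had 0.982 times the rate of peaks under 1 kb (0.920 to 1.05), an interval that includes equal rates. They had 0.863 times the rate of peaks of 2 to 3 kb (0.828 to 0.898), which in turn had 1.08 times that of peaks of 1 to 2 kb (1.03 to 1.12). The share of summits in each class therefore followed the share of marked DNA. Peaks over 3 kb made up 14.6% of the H3K4me2 list, 31.2% of the marked DNA and 29.1% of the marked Etv6 summits. Peaks under 1 kb made up 19.4% of the list, 7.76% of the DNA and 7.38% of the summits.

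This near-equality rested on the whole Etv6 list. With only Etv6 peaks of an authors' fold enrichment (summit height over local background) of at least 10, the ratio of the rates over 3 kb to under 1 kb was 0.427 (0.350 to 0.522). With only those of an authors' score of at least 100 (10 times the −log10 of the p-value), it was 1.33 (1.21 to 1.47). Etv6 peaks in marks over 3 kb had a median of 77 tags and a fold of 5.89, against 45 tags and 6.79 in marks under 1 kb, and the part of this in the ratios was not tested.

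In finer classes the occupied share went on increasing with width, while the rate had a broad maximum, among classes from 500 bp up. From 10.0% (9.04 to 11.0) at 500 to 750 bp, the occupied share reached 34.0% (32.6 to 35.4) at 1750 to 2000 bp, 57.9% (55.9 to 59.8) at 3000 to 3500 bp and 70.5% (67.9 to 73.0) in the 1266 peaks of 5000 bp or more. The rate was 0.156 per kb (0.141 to 0.173) at 500 to 750 bp. Of these classes it was highest at 2500 to 3000 bp, with 0.186 (0.178 to 0.194), and was 0.131 (0.123 to 0.140) at 5000 bp or more. The widest marks thus held fewer Etv6 summits per kb than marks of intermediate width, although more of them were occupied.

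**Figure D1:**
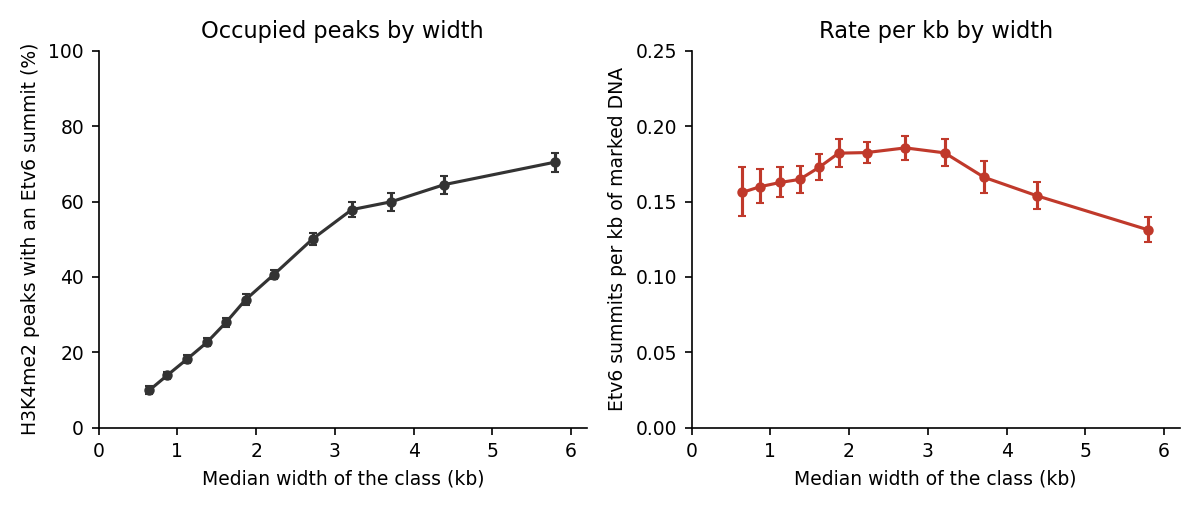
Left, the share of H3K4me2 peaks holding an Etv6 summit (%), and right, the Etv6 summits per kb of marked DNA, both against the median width of 12 width classes (kb), with exact 95% intervals for counting error and 1 library per list. The 259 peaks under 500 bp are not drawn. The share climbs from 10.0% to 70.5%, whereas the rate stays between 0.131 and 0.186 per kb.

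The 259 H3K4me2 peaks under 500 bp stood apart from this trend. Of these, 40 were occupied, or 15.4% (11.3 to 20.4), more than in the next class, and the rate was 0.344 per kb (0.246 to 0.469). Their Etv6 peaks had a median fold of 11.6, against 6.78 in H3K4me2 peaks of 500 to 749 bp, and 39 of the 40 Etv6 peaks were wider than the H3K4me2 peak around their summit. In 29 of the 40 the Etv6 and H3K4me2 summits lay within 50 bp of each other, which is 72.5% (56.1 to 85.4), against 19.2% (15.3 to 23.7) at 500 to 749 bp. Pax6 and EGFP_OK summits were both present in 22 of the 40, against 38 of the 364 occupied peaks of 500 to 749 bp. The Pax6 list had a summit in 11.2% (7.63 to 15.7) of all peaks under 500 bp and in 5.14% (4.44 to 5.90) of those of 500 to 749 bp. The EGFP_OK list had a summit in 13.9% (9.93 to 18.7) of the peaks under 500 bp and in 5.00% (4.31 to 5.76) of those of 500 to 749 bp.

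The occupied share differed less between weak and strong marks than between width classes, but this did not hold for the rate per kb. Each width class was divided into 3 equal groups by H3K4me2 tags per kb. Over 3 kb the occupied share was 63.9% (61.9 to 65.8) in the group with the fewest tags per kb, 58.1% (56.1 to 60.1) in the middle one and 64.4% (62.4 to 66.3) in the group with the most. At 2 to 3 kb the groups gave 48.0% (46.4 to 49.7), 43.9% (42.2 to 45.5) and 41.3% (39.6 to 42.9) in that order. Under 1 kb the groups gave 10.6%, 13.6% and 13.2%. Widths were not equal between the groups of a class. The order depended on the measure. Grouped by the authors' H3K4me2 fold instead, peaks of 2 to 3 kb had 40.9% (39.3 to 42.6) in the lowest and 44.9% (43.3 to 46.6) in the highest group, and by score 41.5% (39.8 to 43.1) and 46.1% (44.4 to 47.8). By fold, peaks over 3 kb had 58.6% (56.6 to 60.6) in the lowest and 65.2% (63.3 to 67.1) in the highest group. Peaks of 1 to 2 kb went the other way, with 26.8% (25.7 to 27.8) and 21.1% (20.2 to 22.1). Per kb of marked DNA, the width classes ran only from 0.159 to 0.184 summits. Over 3 kb, the lowest group by fold had 0.1355 (0.1287 to 0.1425) and the highest 0.1851 (0.1761 to 0.1945). The same groups had 0.1687 and 0.1868 at 2 to 3 kb, 0.1785 and 0.1460 at 1 to 2 kb, and 0.1641 and 0.1586 under 1 kb.

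Peaks of like tag density still differed by width. In the middle of 5 equal groups of all H3K4me2 peaks by tags per kb, 11.7% (8.93 to 14.9) of the 480 peaks under 1 kb were occupied, 25.8% (24.6 to 27.0) at 1 to 2 kb, 50.2% (48.3 to 52.1) at 2 to 3 kb and 64.0% (61.2 to 66.8) over 3 kb. Within this group the rate per kb was 0.137 (0.103 to 0.177) under 1 kb, 0.169 (0.160 to 0.178) at 1 to 2 kb, 0.212 (0.201 to 0.224) at 2 to 3 kb and 0.177 (0.165 to 0.190) over 3 kb. The group with the most tags per kb gave another order. Its 99 peaks under 1 kb had a rate of 0.323 (0.213 to 0.469), against 0.153 (0.147 to 0.160) over 3 kb, and were occupied in 27.3% of cases (18.8 to 37.2), against 26.6% (24.96 to 28.4) at 1 to 2 kb. Over 3 kb, 62.2% (60.6 to 63.8) of that group were occupied. Occupied and unoccupied peaks over 3 kb had the same median of 106.6 tags per kb, with median widths of 3850 and 3662 bp.

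Nearly all occupied H3K4me2 peaks held a single Etv6 summit. Among the 15664 occupied peaks, 15408 held 1 summit, 255 held 2 and 1 held 3. Peaks with several summits were found almost wholly among the wide marks. In peaks over 3 kb, 220 of the 4409 occupied ones held 2 or more, or 4.99% (4.37 to 5.67). At 2 to 3 kb this was 32 of 4705, or 0.680% (0.466 to 0.959), and at 1 to 2 kb 4 of 5375, or 0.0744% (0.0203 to 0.190). None of the 1175 occupied peaks under 1 kb held more than 1 (exact upper limit 0.314%, or 0.255% counted as 3 marks). In the 1266 peaks of 5000 bp or more, 8.22% of all peaks held at least 2. With only Etv6 peaks of a score of at least 100, the share over 3 kb was 0.655%, and of 274 occupied peaks at a fold of at least 10 none held 2 (exact upper limit 1.34%, or 1.10% counted as 3 marks). These filters kept 13826 and 2209 of the 30368 Etv6 peaks. A mark leaves this count when 1 of its 2 summits fails the filter, so the low shares say little about the number of sites.

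Summits that shared a mark were far apart. The 221 neighbouring pairs within marks over 3 kb had a median spacing of 1913 bp, and the closest were 522 bp apart. The peak caller reports 1 summit per peak and joins overlapping enriched windows, and on chromosomes 1 to 19 the closest Etv6 summits of all were 453 bp apart, with 23 neighbouring pairs within 1 kb. Binding sites closer than this cannot be told apart in these lists, and the number of summits per mark is therefore a lower count. In marks under 1 kb, 2 summits could thus seldom be reported, and their absence there says little about the number of sites. In the 255 marks with 2 Etv6 summits, the stronger Etv6 peak had a median of 81 tags and the weaker 59. The summits lay on opposite sides of the H3K4me2 summit in 130 of the 255, or 51.0% (44.7 to 57.3). In marks over 3 kb with 2 or more Etv6 summits, 59.1% (52.3 to 65.7) also held a Pax6 summit, against 43.0% (41.5 to 44.5) of those with 1. For EGFP_OK the shares were 40.9% (34.3 to 47.7) and 42.1% (40.6 to 43.6), with overlapping intervals. The marks with 2 or more were wider, with a median of 4854 bp against 3807 bp.

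Within the mark, Etv6 summits lay towards the centre and were scarce at the edge. The middle 50% of the width held 79.7% of the marked summits (79.0 to 80.3), and the outer 10% at each end held 5.27% together (4.93 to 5.63), where even placement would give 50% and 20%. The share in the middle 50% was 59.1% (56.2 to 61.9) in marks under 1 kb, 76.6% (75.5 to 77.8) at 1 to 2 kb, 87.9% (86.9 to 88.8) at 2 to 3 kb and 80.0% (78.8 to 81.1) over 3 kb. The outermost parts held 14.8% (12.8 to 17.0), 7.47% (6.79 to 8.21), 2.91% (2.45 to 3.43) and 2.70% (2.25 to 3.21) in that order. Marks under 1 kb were thus the least centred and marks of 2 to 3 kb the most. In marks over 3 kb the middle 20% held 35.5% (34.1 to 36.9), against 48.6% (47.2 to 50.0) at 2 to 3 kb.

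**Figure D2:**
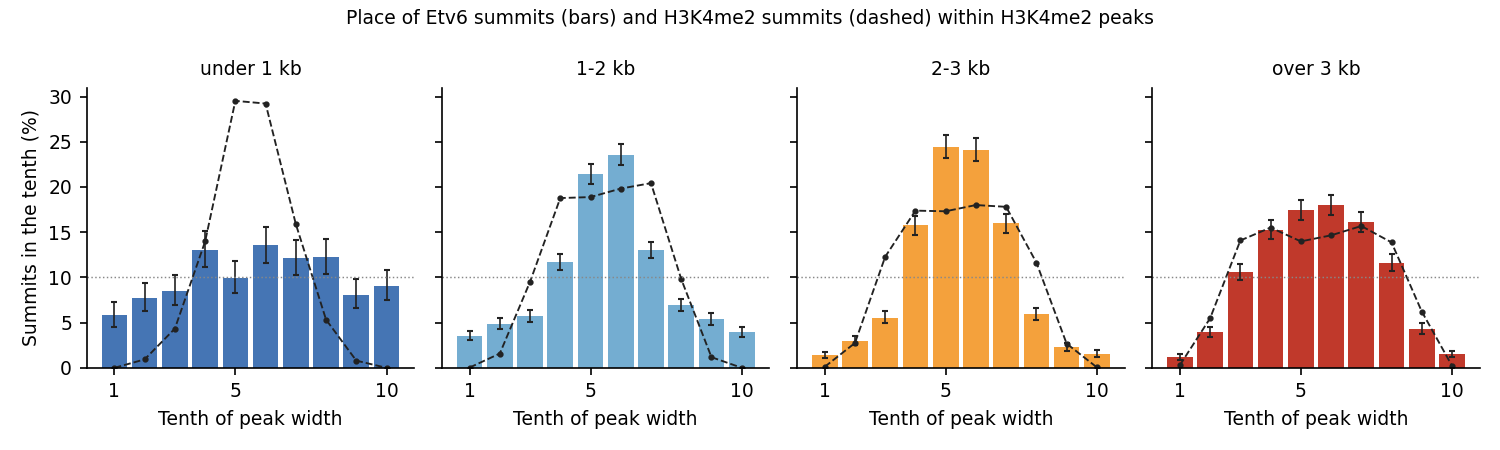
Place of summits within H3K4me2 peaks of 4 width classes, in 10 equal parts of the peak's width from its lower to its higher coordinate. Bars give the share of Etv6 summits (%) with exact 95% intervals for counting error, the dashed line the share of H3K4me2 summits, and the dotted line the 10% of even placement. Bars run from 5.79% to 13.5% under 1 kb and reach 24.5% in marks of 2 to 3 kb, above the H3K4me2 line.

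Measured in bp from the edge, the rate of summits changed steeply inside the mark. The outermost 100 bp of marks over 3 kb had 0.0190 summits per kb (0.0125 to 0.0277) and the zone from 251 to 500 bp 0.0234 (0.0186 to 0.0290). The rate was 0.152 (0.140 to 0.166) at 751 to 1000 bp and 0.267 (0.255 to 0.279) at 1001 to 1500 bp, and 0.231 (0.221 to 0.242) farther in. Marks of 2 to 3 kb went from 0.0222 per kb (0.0163 to 0.0295) in the outermost 100 bp to 0.430 (0.412 to 0.450) at 1001 to 1500 bp. Marks of 1 to 2 kb went from 0.0631 (0.0558 to 0.0711) to 0.465 (0.437 to 0.494) at 751 to 1000 bp, a zone that only marks wider than 1500 bp have. In marks under 1 kb the change was small, from 0.117 (0.102 to 0.133) to 0.192 (0.176 to 0.210) at 251 to 500 bp. The innermost zone of each class drew more of its DNA from the wider marks, and the part of width in these profiles was not tested. The similar rates per kb of the 4 width classes were thus averages over very uneven profiles, and the edges of wide marks had far lower rates than their middle.

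Just outside the mark, the rate depended on the width of the nearest mark. Within 250 bp of the edge it was 0.0624 per kb (0.0553 to 0.0701) beside marks under 1 kb, 0.0253 (0.0223 to 0.0286) beside those of 1 to 2 kb, 0.0132 (0.0102 to 0.0168) beside those of 2 to 3 kb and 0.00634 (0.00397 to 0.00960) beside those over 3 kb. Beside all marks, the rate was 0.0368 (0.0330 to 0.0409) in the first 100 bp and 0.00771 (0.00690 to 0.00858) at 501 to 1000 bp. It then stayed between 0.00766 and 0.00996 out to 50 kb, and was 0.00269 (0.00259 to 0.00280) beyond. Assembly gaps count as unmarked DNA here, which lowers the farthest values.

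**Figure D3:**
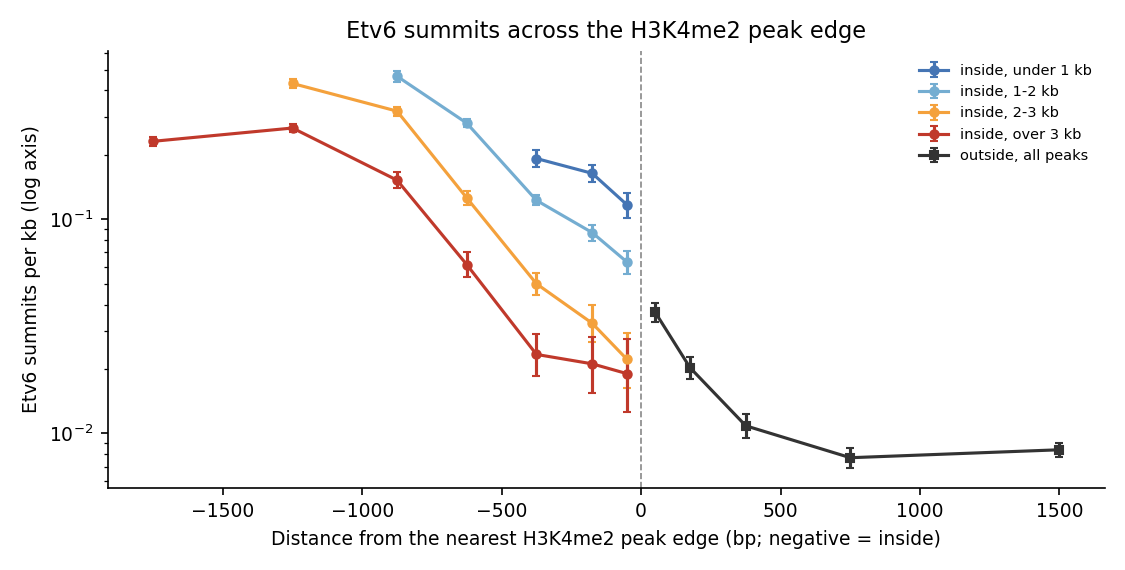
Etv6 summits per kb (log axis) against the distance from the nearest H3K4me2 peak edge (bp), with negative distances inside the peak, by width class, and positive distances outside, for all peaks together. Points stand at the middle of each distance class, that for over 1500 bp inside at 1750, with exact 95% intervals for counting error. In marks over 3 kb the rate is 0.0190 in the outermost 100 bp and 0.267 at 1001 to 1500 bp.

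Narrow gaps between neighbouring H3K4me2 peaks carried Etv6 summits at higher rates than other unmarked DNA. The 4680 gaps of at most 1 kb spanned 1.33 Mb and held 159 Etv6 summits, or 0.120 per kb (0.102 to 0.140). The rate was 0.380 (0.246 to 0.561) in gaps of up to 100 bp, 0.220 (0.161 to 0.294) at 101 to 250 bp, 0.150 (0.115 to 0.193) at 251 to 500 bp and 0.0427 (0.0284 to 0.0617) at 501 to 1000 bp. In gaps of 1001 to 2000 bp it was 0.0103 (0.00577 to 0.0170), similar to other unmarked DNA. These gaps held only 1.10% of the unmarked Etv6 summits. Most unmarked summits were far from the mark, with a median distance of 12782 bp to its edge. Within 1 kb of a mark lay 8.29% of them (7.84 to 8.75), and 17.97% (17.3 to 18.6) lay more than 50 kb away.

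Although Etv6 summits were central, they tended not to lie on the H3K4me2 summit itself. Over 3 kb, the rate was 0.117 summits per kb (0.0935 to 0.145) within 50 bp of the H3K4me2 summit, 0.396 (0.364 to 0.431) at 301 to 400 bp and 0.100 (0.0922 to 0.109) at 1001 to 1500 bp. Marks of 2 to 3 kb gave 0.126 (0.106 to 0.149), 0.395 (0.368 to 0.422) and 0.0464 (0.0405 to 0.0529) at the same distances. In marks of 1 to 2 kb the highest rate was nearer, 0.288 (0.272 to 0.305) at 201 to 300 bp, against 0.160 (0.143 to 0.177) within 50 bp. Marks under 1 kb had no such dip, with 0.202 (0.174 to 0.232) within 50 bp and 0.203 (0.175 to 0.235) at 151 to 200 bp.

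**Figure D4:**
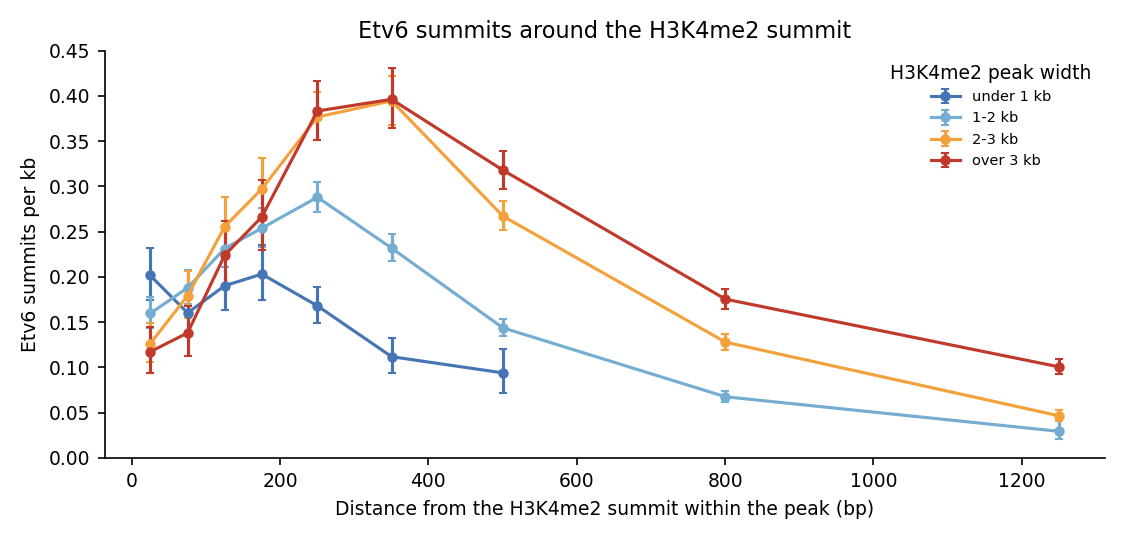
Etv6 summits per kb of marked DNA against the distance from the H3K4me2 summit within the same peak (bp, either side), by width class of the H3K4me2 peak, with exact 95% intervals for counting error. In marks over 3 kb the rate is 0.117 within 50 bp of the H3K4me2 summit and 0.396 at 301 to 400 bp.

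Over all marks together, Etv6 summits lay closer to the midpoint of the mark than to its H3K4me2 summit, most clearly in marks of 1 to 3 kb. Their median distance to the midpoint was 263 bp, and to the H3K4me2 summit 345 bp. Of all marked Etv6 summits, 62.4% (61.7 to 63.2) were nearer to the midpoint than to the H3K4me2 summit. This share was 64.6% (63.3 to 65.9) at 1 to 2 kb and 67.9% (66.6 to 69.2) at 2 to 3 kb. Under 1 kb it was 52.7% (49.8 to 55.6), an interval that includes 50%. Over 3 kb it was 56.7% (55.3 to 58.2), but the median distances there were 570.5 bp to the midpoint and 542.5 bp to the H3K4me2 summit. The H3K4me2 summits themselves were central too, with 88.2% in the middle 50% of the width.

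Etv6 peaks in wide marks held more tags and had higher scores than those in narrow ones, but did not have a higher fold over their local background. The median was 45 tags in marks under 1 kb, 51 at 1 to 2 kb, 60 at 2 to 3 kb and 77 over 3 kb, and 49 at unmarked summits. The authors' median fold went the other way, at 6.79, 6.38, 6.36 and 5.89 across the width classes, and 6.24 at unmarked summits. The quartiles of the folds overlapped widely, from 5.68 to 8.41 under 1 kb and from 4.83 to 7.27 over 3 kb. The authors' median score went with the tags, at 89.4 under 1 kb and 110.4 over 3 kb. Of the 10% of Etv6 peaks with the most tags, 34.6% (33.0 to 36.4) were in marks over 3 kb, against 3.92% (3.26 to 4.67) of the 10% with the fewest. By fold, 12.7% (11.5 to 13.9) of the highest 10% (385 of 3037 peaks) and 27.0% (25.4 to 28.6) of the lowest 10% (820 of 3037) were in those marks. Over the whole list, 4630 of the 30368 Etv6 summits were in marks over 3 kb. The median width of the Etv6 peaks moved with these values, from 990 bp in marks under 1 kb to 1406 bp in those over 3 kb, and its part in them was not tested.

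Overlap of Etv6 peaks with other FLAG peaks differed with the width of the mark, over a wider range for EGFP_OK than for Pax6. An EGFP_OK peak overlapped 17.2% (15.1 to 19.5) of the Etv6 peaks in marks under 1 kb, 19.3% (18.3 to 20.4) at 1 to 2 kb, 29.8% (28.5 to 31.1) at 2 to 3 kb and 37.6% (36.2 to 39.0) over 3 kb, and 10.3% (9.85 to 10.9) of unmarked ones. For Pax6, a factor of eye and forebrain development, the shares were 35.1% (32.3 to 37.9), 35.8% (34.5 to 37.1), 39.1% (37.7 to 40.5) and 41.5% (40.1 to 43.0), and 39.4% (38.6 to 40.2) for unmarked ones. The Pax6 library kept fewer tags than the others, and the part of depth in its shares was not tested. Summits of Etv6 alone accounted for 64.8% (62.0 to 67.5) of the Etv6-occupied marks under 1 kb and 35.5% (34.0 to 36.9) of those over 3 kb. All 3 FLAG lists had a summit in 7.83% (6.36 to 9.52) and 21.3% (20.1 to 22.5) of them. The other lists also occupied more of all wide marks, with or without Etv6. Pax6 had a summit in 5.63% (5.18 to 6.12) of all marks under 1 kb and 29.8% (28.8 to 30.9) of those over 3 kb. For EGFP_OK these shares were 5.85% (5.38 to 6.34) and 34.0% (32.9 to 35.1). Marks without a summit of any FLAG list made up 81.7% (80.9 to 82.5) of those under 1 kb and 28.1% (27.1 to 29.2) of those over 3 kb.

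In marks of 2 kb or more, the profile within the mark was shared with the other FLAG lists in kind and differed in degree. The rate at 201 to 400 bp from the H3K4me2 summit was divided by the rate within 100 bp, in the marks that held a summit of the list (a mark counted once per summit). This ratio was, over 3 kb, 3.06 (2.61 to 3.59) for Etv6, 3.62 (2.85 to 4.65) for Pax6 and 1.66 (1.38 to 2.01) for EGFP_OK. At 2 to 3 kb it was 2.53 (2.24 to 2.86), 2.90 (2.40 to 3.52) and 1.30 (1.11 to 1.52). The middle 50% of the mark held 79.7% of Etv6 summits, 80.9% (80.0 to 81.8) of Pax6 summits and 74.7% (73.7 to 75.7) of EGFP_OK summits. Etv6 and Pax6 intervals overlapped in the ratios of every width class, and those of Etv6 and EGFP_OK overlapped only under 1 kb. Between marks over 3 kb and those of 2 to 3 kb, the ratio of the rates per kb was 0.863 for Etv6, 0.896 (0.844 to 0.952) for Pax6 and 0.982 (0.927 to 1.04) for EGFP_OK. With 1 library per factor these differences have no replicate check, and the EGFP_OK and H3K4me2 titles both name N31.

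The difference in occupancy between wide and narrow marks was found on every chromosome from 1 to 19. It would arise on each at equal rates per kb too, since a wide mark offers more DNA. The occupied share of marks over 3 kb ran from 49.5% (44.3 to 54.6) on chromosome 7 to 70.3% (66.3 to 74.1) on chromosome 3, and that of marks under 1 kb from 7.31% (5.05 to 10.2) on chromosome 14 to 16.7% (13.6 to 20.3) on chromosome 8. Chromosome 14 had the lowest rate per kb, 0.111 (0.100 to 0.122), and chromosome 13 the highest, 0.202 (0.190 to 0.215). The ratio of the rates per kb over 3 kb to under 1 kb, which allows for length, had no common direction. It ran from 0.743 on chromosome 18 to 1.399 on chromosome 14, with a median of 0.979.

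**Figure D5:**
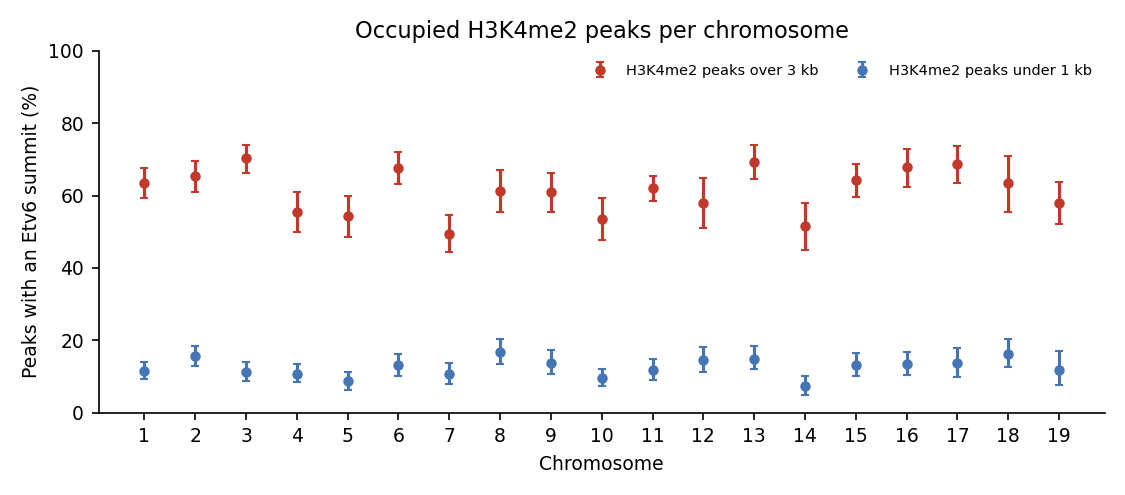
Share of H3K4me2 peaks holding an Etv6 summit (%) on each of chromosomes 1 to 19, for peaks over 3 kb and under 1 kb, with exact 95% intervals for counting error. On all 19 chromosomes the wide peaks lie above the narrow ones, at 49.5% to 70.3% against 7.31% to 16.7%, without allowance for their greater length.

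Single marks show the range of these patterns. They were named by rank, outside 5 regions that were among the top 100 of all 4 lists, and were not assigned to genes because the annotation at hand was of another build. The only mark with 3 Etv6 summits lay on chromosome 2 (32767670 to 32774573, mm9), was 6904 bp wide and had 602 H3K4me2 tags. Its Etv6 peaks had 76, 90 and 75 tags, with summits at 32768153, 32770688 and 32773275, at 7.00%, 43.7% and 81.2% of its width. Only the middle one was near the H3K4me2 summit, at 255 bp. Next by H3K4me2 score among marks with 2 summits were chromosome 11 from 69359430 to 69361775, with 49 and 34 Etv6 tags, and chromosome 17 from 27163420 to 27166285, with 38 and 38. All of these Etv6 peaks had fewer tags than the median of 54 of the Etv6 list. Their scores were 103.4 and 85.99 on chromosome 11 and 53.45 and 60.15 on chromosome 17, against a list median of 93.40. The ranking by H3K4me2 score picked strong marks, here of 8.63-fold and 7.55-fold H3K4me2 enrichment.

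With those 5 regions left out, the single highest-scoring Etv6 peak of each width class lay in a mark that other FLAG lists also occupied. In marks over 3 kb the highest Etv6 score was on chromosome 11 (mark from 87255657 to 87259360), with 400 tags at 12.99-fold and its summit 646 bp from that of H3K4me2. The highest at 2 to 3 kb lay in a neighbouring mark on the same chromosome (87260845 to 87263463), with 362 tags at 11.8-fold. At 1 to 2 kb it was on chromosome 15 (74915866 to 74917724), with 654 tags at 13.96-fold and a summit 26 bp from that of H3K4me2. Under 1 kb it was on chromosome 2 (57481545 to 57482229), with 205 tags at 29.4-fold, at the same base as the H3K4me2 summit, where H3K4me2 itself reached 36.3-fold over 685 bp. Each of these 4 marks also held a Pax6 and an EGFP_OK summit, as did 12.6% (12.1 to 13.1) of all Etv6-occupied marks. The highest-scoring marks over 3 kb without Etv6 were on chromosome 11 (59776727 to 59779853, 599 H3K4me2 tags), which held a Pax6 summit, and chromosome 3 (95860418 to 95863733, 692 tags), which held an EGFP_OK summit. The highest-scoring unmarked Etv6 peaks were on chromosome 18 (83712526 to 83713974, 309 tags, 14.8-fold), 273555 bp from the nearest mark, and chromosome 7 (6362542 to 6363491, 178 tags, 33.98-fold), 10689 bp away. Both overlapped peaks of Pax6 and EGFP_OK.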

How the data were processed

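Peak lists of 4 ChIP-seq libraries were used as deposited. Per the submitters' processing notes, CASAVA 1.8.1, BWA 0.6.2, MACS 1.4.2 and build mm9 were used, with no role given. Per the file headers, MACS 1.4.2 called peaks on each library without a control, at a p cutoff of 1e-05, with 75 bp tags and at most 1 tag per position. Each file gives the count of tags per peak, deposited without normalization. Per the file headers, it also gives a score, 10 times the −log10 of the p-value, and a fold enrichment, the ratio of summit to local background. Both are the authors' values and served only to rank or filter within a list. Samples were grouped by title, with 1 library per group.

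Positions were compared in scipy 1.17.1, pandas 2.3.3 and numpy 2.4.6 (Python 3.11.15), and drawn with matplotlib 3.10.9. A summit was taken as start + summit − 1. Width classes were under 1000 bp, 1000 to under 2000, 2000 to 3000 and over 3000 bp. Rates are summits over summed length of DNA. Shares have exact binomial (Clopper-Pearson), rates exact Poisson and ratios of rates exact conditional binomial intervals, for counting error only. The functions were tested on simulated summits. The comparison, classes and rule for named regions were chosen with earlier results of these data known. The rule named the 3 marks with the most Etv6 summits, the mark with the highest-scoring Etv6 peak per width class, the 2 highest-scoring unmarked Etv6 peaks and the 2 highest-scoring unoccupied marks over 3 kb. Regions among the top 100 of all 4 lists were left out before this ranking. Marks under 500 bp, gaps and chromosomes were described after their values were seen. Alternatives covered thresholds, overlap, joining of marks, chromosome X and width classes. Genes and sequences were not used here, since the tables at hand are of build GRCm38.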

Additional observations from a re-analysis of the deposited data

Results flagged for a closer look

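Peaks outside chromosomes 1 to 19 took no part in the comparisons and were looked at because each list held more of them than a count of 0 allows. Chromosome X held 563 Etv6 and 937 H3K4me2 peaks, and chromosome Y and unplaced sequences held 53 Etv6 and 111 H3K4me2 peaks. On chromosome X 21.7% (18.3 to 25.3) of the Etv6 summits were marked, a lower share than on any of chromosomes 1 to 19, where it ran from 43.9% to 60.5%. The rate of 0.0922 summits per kb of marked DNA (0.0766 to 0.110) on X was also below the lowest of those chromosomes, 0.111 on chromosome 14, although the intervals of these rates overlap. Of the H3K4me2 peaks on X, 12.7% (10.6 to 15.0) were occupied. The sources used here do not state the copy number of X in these cells.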

How the results depend on the processing

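Of 51 values recomputed under an alternative, 25 stayed within the counting interval of the reported value and 26 moved beyond it. Adding chromosome X or leaving out the regions that recur at the top of all lists moved none of them. Both changed the lists little, to 30931 and 30363 Etv6 peaks from 30368, and so could move the values little. In every alternative more marks over 3 kb than under 1 kb were occupied (in the alternative by rank of width, more of the widest than of the narrowest 20%), and the middle 50% of the mark held more summits than even placement wherever it was computed. The occupied shares do not allow for the greater length of wide marks, and the ratio of rates per kb moved to both sides of equal rates. With Etv6 scores of at least 100, marked summits were 58.4%, occupied marks 5.20% under 1 kb and 36.6% over 3 kb, the ratio of rates 1.33, marks over 3 kb with 2 or more summits 0.655% and summits in the middle 50% of the mark 82.7%. With Etv6 folds of at least 10 the same quantities were 56.0%, 1.70%, 3.86%, 0.427, 0% (of 274 marks, exact upper limit 1.34%) and 85.2%. These filters kept 13826 (score) and 2209 (fold) of the 30368 Etv6 peaks, and a shorter list can only lower the occupied shares. With H3K4me2 scores of at least 100, marked summits were 43.9%, occupied marks under 1 kb 13.3%, the ratio 1.08 and summits in the middle 50% 82.0%. Overlap by 1 bp gave 55.5% marked, 17.4% and 63.9% occupied and a ratio of 0.724, since a wide Etv6 peak can touch a narrow mark without its summit. Joining marks across gaps of up to 1 kb gave 60.6% occupied over 3 kb, a ratio of 0.889 and 82.6% in the middle 50%. Etv6 midpoints gave 81.6% in the middle 50%, and the widest 20% of marks 59.4% occupied and 4.14% with 2 or more. Other causes were not tested. No paired analysis was possible because each group has 1 library. The closest Etv6 summits were 453 bp apart and the weakest Etv6 peak had 18 tags, so closer or weaker sites do not appear in the list.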
